A study of Mus musculus with 10 samples.

Results

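The set described here is ThPOK, LRF and the Runx factors, 6 genes of a table of 34573 gene symbols: Zbtb7b (ThPOK), Zbtb7a (LRF), Runx1, Runx2, Runx3 and Cbfb. They were chosen by name, each symbol matched 1 row, and all 6 passed the filter on low counts that left 12193 genes for testing. RNA was sequenced from naive T cells of mouse spleen at 6 weeks of age, in 10 libraries that form 5 groups of 2. Mice homozygous for the OB11 allele (OB11/OB11) gave 3 of the groups, called CD4hi (high CD4), DP (CD4 and CD8 both on the surface) and CD4lo (low CD4). Wild-type mice gave CD8 cells (WT CD8) and CD4 cells (WT CD4). All groups were sorted by flow cytometry as TCRb-positive cells with high CD62L and without CD25 or CD44, though transcripts of Il2ra (CD25) and Cd44 were counted in every library. The labels do not state what the OB11 allele changes, so whether it alters which Zbtb7b reads could be counted is not known here. Whether the paired libraries came from separate animals is not stated, and the p-values therefore measure only the spread between these libraries.

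ThPOK is a BTB zinc finger repressor needed for thymocytes to become CD4 T cells, and it represses genes of the CD8 lineage. LRF is its close relative and shares part of that work. Runx proteins bind DNA through the Runt domain as pairs with Cbfb, and in CD8 cells Runx3 represses both Cd4 and, through a silencer, Zbtb7b. The series title concerns the autoregulatory loop of ThPOK in mature CD4 T cells, and the comparisons below set the level of each factor beside the coreceptors that a cell carries.

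Library totals ran from 5055956 to 7417789 counts. Cd4 and Cd8a transcripts went with the sort: Cd4 averaged 483, 242, 34.0, 2.89 and 641 CPM (counts scaled to library size, the usual unit of read share) in CD4hi, DP, CD4lo, WT CD8 and WT CD4, and Cd8a averaged 1.31, 258, 2.75, 604 and 2.16 CPM. All 12 T cell markers were present in every group, with summed levels between 2690 and 3390 CPM. The summed B cell markers ran from 61.0 to 82.0 CPM in CD4hi, 189 to 226 in DP, 54.7 to 65.0 in CD4lo, 280 to 303 in WT CD8 and 40.9 to 69.9 in WT CD4. The summed gamma delta T cell markers were at 135 to 136 CPM in CD4lo and between 1.42 and 7.18 CPM in the other groups. In CD4lo, 6 of 6 were higher than in each other group, beside 2.55% to 8.82% of all tested genes. The titles of the CD4lo and WT CD4 libraries carry an extra mark (L) whose meaning the labels do not give. Of the 10 comparisons, 4 were between groups alike in this mark (CD4lo against WT CD4, CD4hi and DP against WT CD8, DP against CD4hi), and in the other 6 an effect of the mark cannot be told apart from one of the group.

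The 6 genes lie on 6 chromosomes. In GENCODE M21 on mm10, all as protein-coding genes, they are Zbtb7b at chr3:89377644-89394776 on the minus strand, Zbtb7a at chr10:81135220-81152995 on the plus strand, Runx1 at chr16:92601466-92826149 on the minus strand, Runx2 at chr17:44495987-44814797 on the minus strand, Runx3 at chr4:135120652-135177990 on the plus strand and Cbfb at chr8:105170674-105217989 on the plus strand. Antisense genes share exon bases with Zbtb7b (Gm15417, 116 bases), Runx1 (Gm26626, 106 bases) and Runx2 (Runx2os1, 519 bases), and reads there could not be assigned with certainty because the strand setting of the counting is not stated. Gm15417 held 29 counts over all libraries, against 2509 for Zbtb7b.

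TGTGGT, a form of the letters recognised by Runx proteins, or ACCACA on the other strand, was searched in the RefSeq promoter windows of build GRCm38.p6. These run from 250 bases before to 50 bases after each start. Other forms of the Runx letters were not searched, so a window without TGTGGT or ACCACA may still hold them. TGTGGT or ACCACA was present in 5500 of 32817 windows (16.76%) and at least 2 copies in 595 (1.813%). The most upstream start of each of the 3 Runx genes held 2 ACCACA copies in 1 direction with the bases ga between them. This run occurred in 4 windows of all (0.0122%), namely these 3 and that of Gm16225, whose window overlaps the Runx3 window by 232 bases on the opposite strand. The 30 bases around it are shown because the 3 members share the run, with the ACCACA copies in capitals and each sequence given on its gene's strand, for Runx1 at chr16:92826025-92826054, Runx2 at chr17:44814583-44814612 and Runx3 at chr4:135120503-135120532.
Runx1: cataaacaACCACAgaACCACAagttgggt
Runx2: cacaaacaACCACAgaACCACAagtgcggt
Runx3: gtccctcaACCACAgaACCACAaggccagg
The copies began 28 and 36 bases past the start in Runx1, 23 and 31 bases past it in Runx2, and 134 and 126 bases before it in Runx3. Runx2 had a further ACCACA 80 bases before its start, and the second starts of Runx1 and Runx3 had neither TGTGGT nor ACCACA. Such matches describe letters and show no binding.

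Zbtb7b has 2 starts in the RefSeq table. The 250 bases before each are shown because this gene varied most of the 6 across the groups, on the gene's strand (minus). They lie at chr3:89393379-89393628 for the upstream start and chr3:89387672-89387921 for the downstream one, with TGTGGT or ACCACA in capitals.
Zbtb7b upstream start: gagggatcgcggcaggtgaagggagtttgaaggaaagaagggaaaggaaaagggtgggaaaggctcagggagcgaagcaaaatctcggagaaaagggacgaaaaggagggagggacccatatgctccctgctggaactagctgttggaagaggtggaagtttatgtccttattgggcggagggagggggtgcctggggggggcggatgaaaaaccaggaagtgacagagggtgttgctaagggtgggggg
Zbtb7b downstream start: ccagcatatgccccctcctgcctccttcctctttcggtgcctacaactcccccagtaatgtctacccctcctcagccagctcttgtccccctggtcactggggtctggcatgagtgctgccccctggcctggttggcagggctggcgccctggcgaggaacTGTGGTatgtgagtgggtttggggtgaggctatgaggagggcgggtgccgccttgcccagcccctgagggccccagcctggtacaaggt
The downstream start had 1 TGTGGT, 89 bases before it, and the upstream start had neither TGTGGT nor ACCACA. The windows of Zbtb7a and Cbfb held neither as well.

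Zbtb7b, the gene of ThPOK, was lower in every OB11/OB11 group than in WT CD4 and higher in every one than in WT CD8. It was read 155 and 165 times in the CD4hi libraries (27.7 and 28.0 CPM), 45 and 65 times in DP (7.05 and 9.18 CPM), 70 and 44 times in CD4lo (9.38 and 8.62 CPM), 14 and 22 times in WT CD8 (2.72 and 2.96 CPM), and 888 and 1041 times in WT CD4 (158 and 145 CPM). The pairs of libraries were apart in all groups except DP and CD4lo, which overlapped. The summed level of 9 regulatory T cell markers went partly with this order, at 529 to 545 CPM in CD4hi, 267 to 291 in DP, 148 to 160 in CD4lo, 64.6 to 74.7 in WT CD8 and 467 to 481 in WT CD4; their part in the result was not tested. As a share of the WT CD4 mean, the CD4hi level was 18.4%, that of DP 5.37%, that of CD4lo 5.95% and that of WT CD8 1.88%. The WT CD8 counts are small, with exact Poisson 95% intervals of 7.65 to 23.5 and 13.8 to 33.3 counts that cover counting error only.

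Against WT CD4, the log2 fold change of Zbtb7b was -2.44 ± 0.10 in CD4hi (adjusted p = 6.54e-10), -4.21 ± 0.12 in DP (1.61e-11), -4.06 ± 0.12 in CD4lo cells (2.00e-11) and -5.72 ± 0.14 in WT CD8 (1.72e-12), as log2 ± SE from edgeR's quasi-likelihood test with n = 2 libraries a group. Against WT CD8 it was 3.28 ± 0.17 in CD4hi (8.30e-09), 1.51 ± 0.21 in DP (0.000355) and 1.66 ± 0.21 in CD4lo (0.000118). Within the OB11/OB11 cells, Zbtb7b was lower in DP than in CD4hi (-1.77 ± 0.14, 4.01e-06) and lower in CD4lo than in CD4hi (-1.62 ± 0.14, 2.19e-06). Between CD4lo and DP the difference was 0.15 ± 0.16 (adjusted p = 0.752), so these neighbours in the order did not differ beyond their spread. In sorted bulk samples, fewer cells that express a gene and less RNA per cell cannot be told apart.

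**Figure D1:**
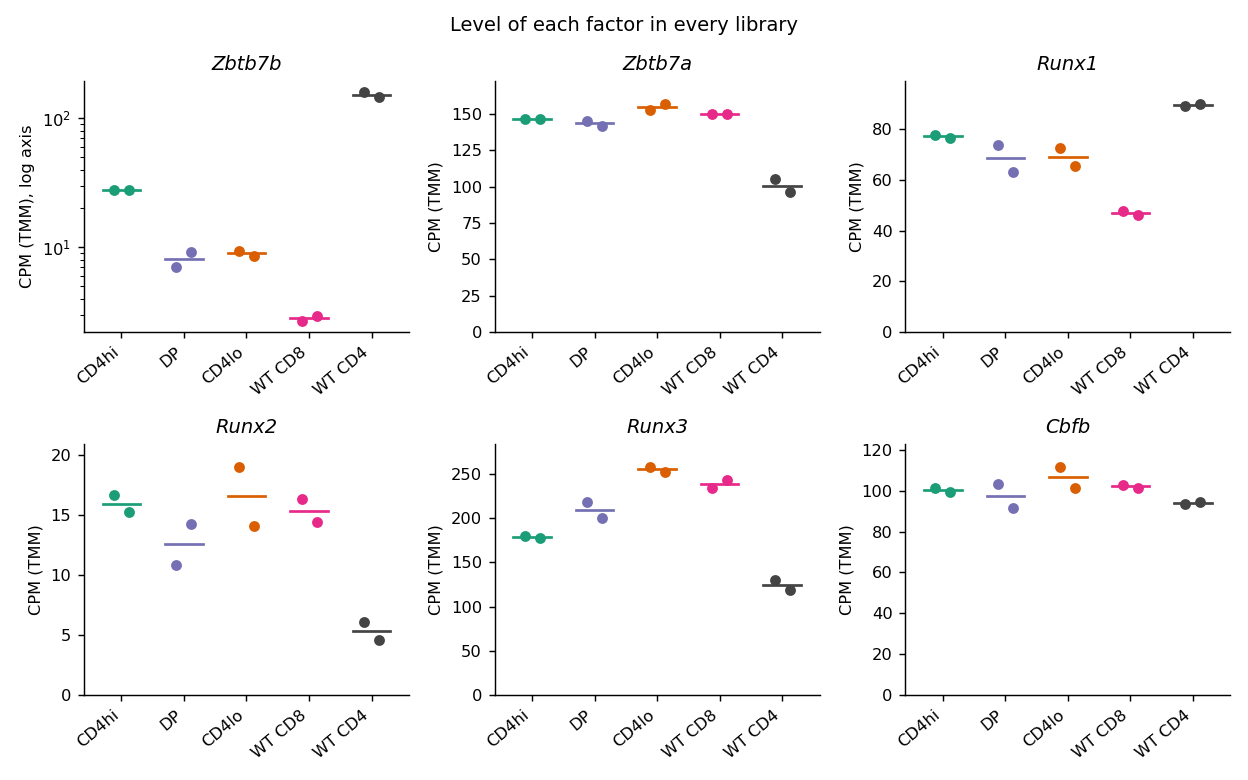
Level of each of the 6 factors in CPM (vertical axes, log scale for Zbtb7b) in the 10 libraries, by group from CD4hi to WT CD4; points are libraries and the horizontal bar is the group mean. Zbtb7b is lowest in WT CD8 at 2.72 and 2.96 CPM and highest in WT CD4 at 158 and 145 CPM, whereas Cbfb stays between 91.8 and 112 CPM.

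Zbtb7a, which encodes LRF, was lower in WT CD4 than in all other groups. It was at 147 and 147 CPM in CD4hi, 145 and 142 in DP, 153 and 157 in CD4lo, 150 and 150 in WT CD8, and 105 and 96.1 CPM in WT CD4. The WT CD4 pair lay below all other libraries, which spanned 142 to 157 CPM. Of 12 B cell markers, those called higher than in WT CD4 numbered 1 (CD4hi), 10 (DP), 0 (CD4lo) and 12 (WT CD8). Of all tested genes, 10.4%, 11.1%, 8.82% and 11.1% were higher in these groups. The 14 macrophage markers summed to 225 to 231, 341 to 360, 191 to 204, 188 to 203 and 155 to 170 CPM in CD4hi, DP, CD4lo, WT CD8 and WT CD4, and the 10 dendritic cell markers to 57.4 to 77.7, 146 to 157, 95.2 to 96.7, 162 to 163 and 27.0 to 29.5 CPM. Slc40a1 and Batf3 were at 0 in WT CD8 and Clec9a in CD4lo. Called higher than in WT CD4 were 4, 9, 2 and 2 of 12 macrophage markers tested in CD4hi, DP, CD4lo and WT CD8. For 8 dendritic cell markers tested these numbers were 2, 3, 3 and 3, and none of either list was called lower. The median log2 fold changes were 1.537, 2.585, 0.415 and 0.635 for macrophage markers and 0.569, 1.113, -0.269 and 0.751 for dendritic cell markers. The macrophage and dendritic cell sums, too, were lowest in WT CD4. The part of such cells in the Zbtb7a and Runx2 results was not tested. Against WT CD4 the log2 fold changes were 0.55 ± 0.08 in CD4hi (adjusted p = 0.000138), 0.51 ± 0.08 in DP (0.000186), 0.63 ± 0.08 in CD4lo cells (3.37e-05) and 0.58 ± 0.08 in WT CD8 (5.20e-05). In none of the other 6 comparisons was Zbtb7a called; against WT CD8 it was -0.03 in CD4hi (0.857), -0.06 in DP (0.734) and 0.05 in CD4lo (0.839).

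Per kilobase of exon, the scale on which genes can be set beside each other, the sum of Zbtb7b and Zbtb7a was 26.5, 22.5, 24.4, 22.5 and 41.8 CPM per kilobase in CD4hi, DP, CD4lo, WT CD8 and WT CD4. Zbtb7b made up 18.8% ± 0.06 of that sum in CD4hi, 6.44% ± 1.21 in DP, 6.60% ± 0.48 in CD4lo, 2.25% ± 0.13 in WT CD8 and 64.7% ± 0.02 in WT CD4 (SD, n = 2). LRF transcripts were thus the larger part of the pair in every library but those of WT CD4.

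Runx3, the Runx factor of CD8 cells that represses Cd4, was highest in CD4lo and WT CD8 and lowest in WT CD4. It was at 180 and 178 CPM in CD4hi, 218 and 201 in DP, 259 and 253 in CD4lo, 235 and 244 in WT CD8, and 131 and 119 CPM in WT CD4. The groups from CD4lo down to WT CD4 did not overlap in any pair. Against WT CD4 the log2 fold change was 0.52 ± 0.08 in CD4hi (adjusted p = 0.000284), 0.75 ± 0.08 in DP (7.80e-06), 1.04 ± 0.08 in CD4lo cells (2.69e-07) and 0.94 ± 0.08 in WT CD8 (4.95e-07).

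Set against WT CD8, Runx3 was lower in CD4hi (-0.42 ± 0.08, adjusted p = 0.00202), while the values of -0.19 ± 0.08 in DP (0.171) and 0.10 ± 0.08 in CD4lo (0.625) did not pass. Within the OB11/OB11 cells it was higher in CD4lo than in CD4hi by 0.52 ± 0.08 (0.000501), and 0.23 ± 0.08 in DP against CD4hi did not pass (0.227). It was also called higher in CD4lo than in DP, by 0.29 ± 0.08 (0.0338), a call lost when any 1 of those 4 libraries was left out (adjusted p 0.100 to 0.365). CD4lo, with the highest Runx3, was also the group with the gamma delta markers named above. Its 9 NK and NKT cell markers summed to 73.6 to 91.0 CPM, against 80.4 to 91.2 in WT CD8, 41.7 to 45.0 in DP, 16.9 to 19.5 in CD4hi and 6.04 to 9.45 in WT CD4; Klrb1b was at 0 in CD4hi, DP, CD4lo and WT CD8, Klra8 and Klra4 in CD4hi, DP and WT CD8, and Klrb1c in WT CD8. Of these sums, Nkg7 alone averaged 43.3 CPM in CD4lo and 83.5 CPM in WT CD8. Of all tested genes, 3.41% were higher and 2.08% lower in CD4lo than in WT CD8. Among the 6 NK and NKT markers tested, 4 were higher and 1 lower. The part of these cells in the Runx3 level was not tested.

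Runx1, the Runx factor of early thymocytes that takes part in keeping Cd4 silent before the CD4 and CD8 double-positive stage, was ordered as Zbtb7b was. It was at 77.9 and 76.6 CPM in CD4hi, 74.0 and 63.1 in DP, 72.8 and 65.4 in CD4lo, 47.7 and 46.1 in WT CD8, and 89.0 and 90.0 CPM in WT CD4. WT CD8 lay below and WT CD4 above all libraries of the OB11/OB11 cells, whose DP and CD4lo pairs overlapped. Against WT CD8 the log2 fold change was 0.72 ± 0.09 in CD4hi (adjusted p = 0.000121), 0.55 ± 0.09 in DP (0.00205) and 0.56 ± 0.09 in CD4lo (0.00154).

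Set against WT CD4, Runx1 was lower in DP (-0.39 ± 0.09, adjusted p = 0.00659), in CD4lo (-0.37 ± 0.09, 0.0105) and in WT CD8 (-0.93 ± 0.09, 3.53e-06), and -0.21 ± 0.09 in CD4hi did not pass (0.122). The DP call was lost without the second DP library (0.164) and the CD4lo call without the second CD4lo library (0.162), without a filter on low counts (0.0583) and in DESeq2 (0.0644). The call of DP against WT CD8 was lost without the first DP library (0.0708) and without the second WT CD8 library (0.0567). No difference of Runx1 among the 3 OB11/OB11 groups was called; the widest was -0.17 in DP against CD4hi (0.533).

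Runx2, best known as the master factor of bone-forming cells, was lower in WT CD4 than in the other groups. Per kilobase of exon it was the lowest of the Runx genes in every group, at 1.80, 1.42, 1.87, 1.74 and 0.601 CPM per kilobase in CD4hi, DP, CD4lo, WT CD8 and WT CD4. It was read 93 and 90 times in CD4hi (16.6 and 15.2 CPM), 69 and 101 times in DP (10.8 and 14.3), 142 and 72 times in CD4lo (19.0 and 14.1), 84 and 107 times in WT CD8 (16.3 and 14.4) and 34 and 33 times in WT CD4 (6.04 and 4.58). The WT CD4 libraries lay below all others, which spanned 10.8 to 19.0 CPM. Against WT CD4 the log2 fold change was 1.60 ± 0.23 in CD4hi (adjusted p = 0.000207), 1.26 ± 0.23 in DP (0.00148), 1.67 ± 0.23 in CD4lo cells (0.000111) and 1.54 ± 0.23 in WT CD8 (0.000194). None of the other 6 comparisons was called for Runx2, among them CD4hi against WT CD8 at 0.06 ± 0.20 (0.900) and DP against WT CD8 at -0.28 ± 0.20 (0.522).

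Cbfb, the partner that does not bind DNA itself and stabilises each Runx protein on DNA, was called in no comparison. It was at 101 and 99.4 CPM in CD4hi, 104 and 91.8 in DP, 112 and 101 in CD4lo, 103 and 102 in WT CD8, and 93.5 and 94.3 CPM in WT CD4. The highest group mean was 1.13 times the lowest, whereas that ratio was 53.3 for Zbtb7b, 3.12 for Runx2, 2.05 for Runx3, 1.91 for Runx1 and 1.54 for Zbtb7a. Against WT CD4 the log2 fold change was 0.10 ± 0.08 in CD4hi (adjusted p = 0.500), 0.06 in DP (0.693), 0.19 ± 0.08 in CD4lo cells (0.156) and 0.12 in WT CD8 (0.328), which does not show that the levels were equal.

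The calls of the 6 genes were counted beside those of all 12193 tested genes. In CD4hi against WT CD4, 3 of the 6 were higher and 1 lower, where 10.4% of all tested genes were higher and 6.43% lower (16.8% called). In DP against WT CD4, 3 were higher and 2 lower, beside 11.1% and 8.06% of all genes (19.1% called). CD4lo against WT CD4 gave 3 higher and 2 lower, beside 8.82% and 7.02% (15.8% called). WT CD8 against WT CD4 gave 3 higher and 2 lower as well, beside 11.1% and 10.6% (21.7% called). In the last 3 comparisons the calls fell on the same genes, Zbtb7a, Runx2 and Runx3 as higher and Zbtb7b and Runx1 as lower. These 4 comparisons share the WT CD4 libraries and are not independent of each other.

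Against WT CD8, Zbtb7b and Runx1 were higher and Runx3 lower in CD4hi, that is 2 higher and 1 lower of 6, beside 6.22% and 3.69% of all tested genes (9.92% called). In DP, 2 were higher and 0 lower, beside 4.57% and 2.28% (6.85% called), and in CD4lo 2 were higher and 0 lower, beside 3.41% and 2.08% (5.49% called). The higher genes were again Zbtb7b and Runx1 in both. These 3 comparisons share the WT CD8 libraries.

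In DP against CD4hi, 0 members were higher and 1, Zbtb7b, was lower, beside 0.763% and 0.861% of all genes (1.62% called). In CD4lo against CD4hi, Runx3 was higher and Zbtb7b lower, beside 2.76% and 4.27% (7.03% called). In CD4lo against DP, Runx3 was higher and none was lower, beside 2.55% and 3.64% (6.19% called).

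With 2 libraries a group, libraries of different groups often failed to overlap in genes of all kinds. Against WT CD4 they did not overlap for 6 of the 6 genes in CD4hi, CD4lo and WT CD8 and for 5 in DP, beside 54.5%, 54.0%, 59.7% and 58.4% of all tested genes. Against WT CD8 the count was 5 in CD4hi, 5 in DP and 4 in CD4lo, beside 52.7%, 51.2% and 46.2%. Among the OB11/OB11 groups it was 5 in DP against CD4hi (41.8% of all genes), 4 in CD4lo against CD4hi (47.4%) and 2 in CD4lo against DP (48.2%).

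**Figure D2:**
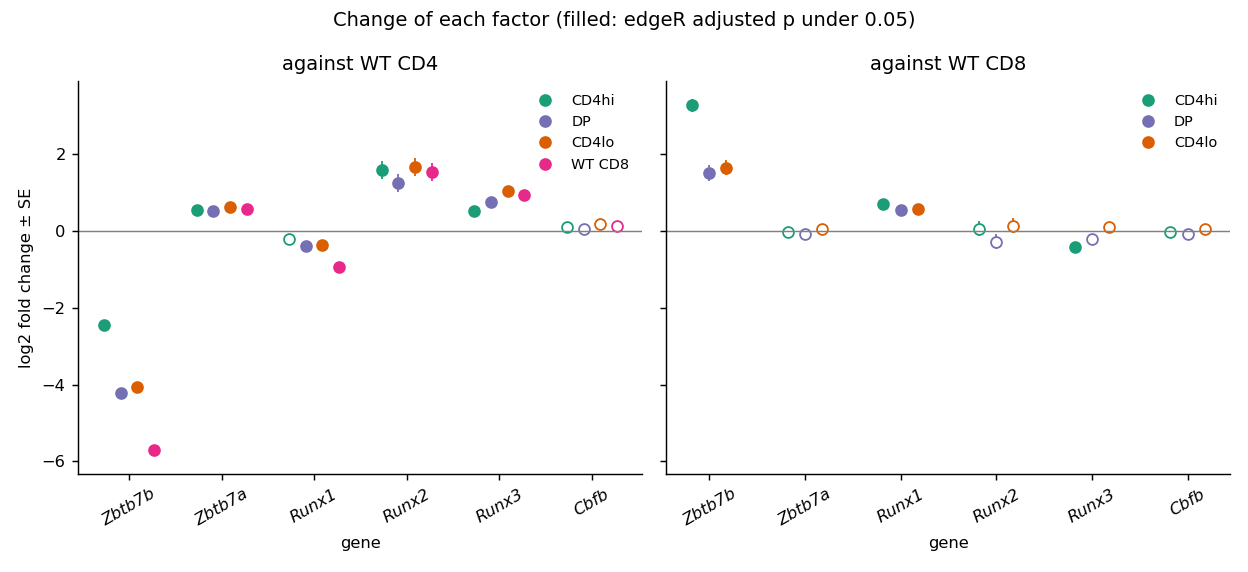
Log2 fold change ± SE of each factor (vertical axis) in CD4hi, DP, CD4lo and WT CD8 against WT CD4 (left) and in the OB11/OB11 groups against WT CD8 (right); filled points passed an adjusted p of 0.05 in edgeR's quasi-likelihood test. Zbtb7b spans from -2.44 to -5.72 against WT CD4, while Zbtb7a, Runx2 and Runx3 lie above 0 in all 4 groups.

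The balance of ThPOK and Runx3 transcripts differed between the groups by more than the spread within them, except between DP and CD4lo. Per kilobase of exon, Zbtb7b was at 4.98, 1.45, 1.61, 0.507 and 27.1 CPM in CD4hi, DP, CD4lo, WT CD8 and WT CD4, and Runx3 at 35.7, 41.9, 51.1, 47.8 and 24.9 CPM. The log2 ratio of Zbtb7b over Runx3 was -2.84 ± 0.02 in CD4hi, -4.86 ± 0.35 in DP, -4.99 ± 0.06 in CD4lo cells, -6.56 ± 0.05 in WT CD8 and 0.12 ± 0.01 in WT CD4 (SD, n = 2). WT CD4 was thus the group in which Zbtb7b reached the level of Runx3, and DP and CD4lo lay within the spread of the DP libraries. An exact permutation test of such a ratio cannot give less than p = 0.333 in this design (2 libraries against 2), and none was run.

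Within the Runx genes, Runx3 made up most of the summed transcripts per kilobase in every library. Its share was 81.3% ± 0.23 in CD4hi, 85.5% ± 0.10 in DP, 87.0% ± 1.03 in CD4lo, 89.4% ± 0.67 in WT CD8 and 75.6% ± 1.09 in WT CD4. Runx1 made up 14.6%, 11.6%, 9.78%, 7.31% and 22.6% in the same order, and Runx2 4.11%, 2.92%, 3.18%, 3.25% and 1.82%. The Runx1 share therefore ran from WT CD8 up to WT CD4, with the OB11/OB11 groups in between. It depends on the gene length used: with the longest transcript in place of all exons it was 21.4% in CD4hi, 17.3% in DP, 14.7% in CD4lo, 11.1% in WT CD8 and 31.7% in WT CD4, which leaves the order as it was.

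The sum of the 3 Runx genes was 44.0 ± 0.47, 49.0 ± 2.84, 58.7 ± 1.70, 53.4 ± 1.03 and 33.0 ± 1.70 CPM per kilobase in CD4hi, DP, CD4lo, WT CD8 and WT CD4. Cbfb was at 28.9, 28.1, 30.6, 29.4 and 27.0 CPM per kilobase. In every group the summed Runx level exceeded that of their shared partner.

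**Figure D3:**
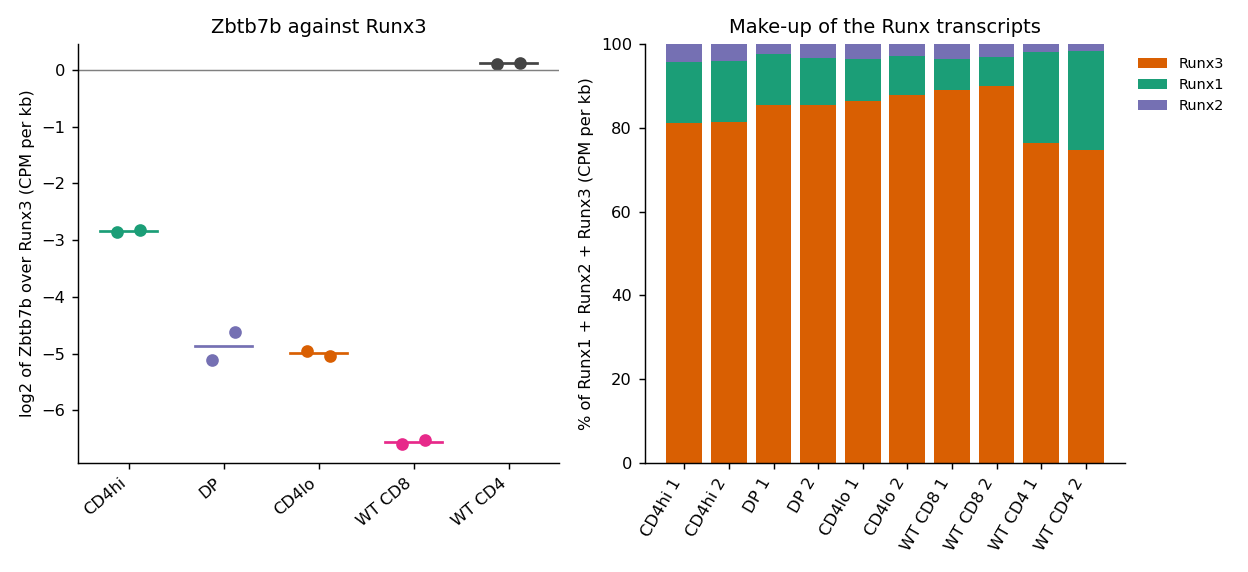
Left, log2 ratio of Zbtb7b over Runx3 (CPM per kilobase of exon) in each library by group, with the group mean as a bar; right, the share in percent of Runx1, Runx2 and Runx3 in their sum for each library. The mean ratio is -6.56 for WT CD8 and 0.12 for WT CD4, and the mean Runx3 share 89.4% for WT CD8 and 75.6% for WT CD4.

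Other genes around these factors were taken from lists chosen with earlier results of these data known. Of the other BTB zinc finger genes of the POK family, 40 of 45 listed were tested. Against WT CD4, 1 was higher and 4 lower in CD4hi, 1 and 5 in DP, 1 and 4 in CD4lo, and 0 and 6 in WT CD8, with list medians of -0.05, -0.15, -0.16 and -0.10 where the medians over all genes were 0.00, -0.01, -0.02 and -0.03. Of all tested genes, 10.4% were higher and 6.43% lower in CD4hi, 11.1% and 8.06% in DP, 8.82% and 7.02% in CD4lo, and 11.1% and 10.6% in WT CD8. With 1 library left out, the lower members numbered 2 to 3 for CD4hi, 1 to 3 for DP, 3 for CD4lo and 2 to 4 for WT CD8, and the higher ones 0 to 1 for CD4hi, DP and WT CD8 and 1 for CD4lo. Zbtb37 was called lower in all 4 groups, at -0.80, -0.66, -0.76 and -0.62, with mean levels of 21.4, 23.6, 22.0, 24.2 and 37.3 CPM in CD4hi, DP, CD4lo, WT CD8 and WT CD4. Zbtb32, a repressor that restrains activated lymphocytes, was higher in CD4hi (2.12 ± 0.44, adjusted p = 0.00389) and DP (1.87 ± 0.44, 0.00815).

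Zbtb16 encodes PLZF, the factor of NKT and other innate-like T cells. It was read 99 and 65 times in CD4lo, against 4 and 2 times in CD4hi, 3 and 1 times in DP, 3 and 1 times in WT CD8 and 7 and 19 times in WT CD4. Its log2 fold change in CD4lo against WT CD4 was 2.69 ± 0.44 (adjusted p = 0.000531). Zbtb16 is itself 1 of the 9 NK and NKT markers. Of these, 5 of 6 tested were higher in CD4lo than in WT CD4, beside 8.82% of all tested genes. The gamma delta markers were at 135 to 136 CPM in CD4lo, against 1.42 to 7.18 CPM in the other groups. The part of such cells was not tested. Bcl6, the factor of follicular helper cells, was lower in CD4lo (-0.49 ± 0.16, 0.0479) and had values of 0.42 in CD4hi (0.0663), 0.28 in DP (0.214) and -0.31 in WT CD8 (0.172). Patz1, a BTB zinc finger factor linked to CD8 expression, was at 42.2, 53.1, 44.9, 47.8 and 48.4 CPM and was not called against WT CD4.

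Of 17 factors placed upstream of Zbtb7b in thymocytes, 3 were higher and 3 lower in CD4hi than in WT CD4, 3 and 2 in DP, 2 and 3 in CD4lo, and 2 and 7 in WT CD8. Over all tested genes, 16.8%, 19.1%, 15.8% and 21.7% were called in these groups. With 1 library left out, the higher factors numbered 2 to 3 for CD4hi, 1 to 3 for DP, 1 to 2 for CD4lo and 2 to 3 for WT CD8, and the lower ones 1 to 4, 0 to 2, 3 to 4 and 3 to 5. Gata3, which is needed for Zbtb7b expression during CD4 development, was at 59.4, 49.7 and 53.2 CPM in CD4hi, DP and CD4lo, at 32.3 CPM in WT CD8 and at 59.5 CPM in WT CD4. It was lower in WT CD8 than in WT CD4 (-0.89 ± 0.11, adjusted p = 3.27e-05), while its values in CD4hi (0.00, 0.989), DP (-0.26, 0.101) and CD4lo (-0.16, 0.338) did not pass.

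Myb, a factor of thymocyte growth and CD4 commitment, was higher than in WT CD4 in all 4 groups, by 1.25 in CD4hi, 1.35 in DP, 1.52 in CD4lo cells and 0.70 in WT CD8. Tox, an HMG-box factor of CD4 lineage development, was higher in CD4hi (0.33, adjusted p = 0.0239) and lower in CD4lo (-0.53, 0.00133) and WT CD8 (-0.34, 0.0193). Its relative Tox2 was higher in CD4hi (1.57) and DP (1.06) and lower in CD4lo (-2.46) and WT CD8 (-2.81). Ets1 was at 991, 919, 918, 870 and 986 CPM and was lower only in WT CD8 of these 4 (-0.18 ± 0.06, 0.0420). Smarce1, a subunit of the BAF remodelling complex, was lower in CD4hi (-0.34), DP (-0.25) and WT CD8 (-0.36).

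Corepressors that Runx or POK factors recruit were tested for 24 of 25 listed genes. Against WT CD4, 4 were higher and 2 lower in CD4hi, 2 and 2 in DP, 4 and 1 in CD4lo, and 6 and 1 in WT CD8. The called shares of all tested genes were 16.8%, 19.1%, 15.8% and 21.7%. With 1 library left out, the higher ones numbered 1 to 4, 2 to 3, 1 to 3 and 3 to 4 in these groups, and the lower ones 0 to 2, 0 to 2, 0 to 1 and 1 to 2. Gatad2a, a subunit of the NuRD complex, was higher in all 4, by 0.52, 0.61, 0.65 and 0.63, and so was the histone deacetylase Hdac7, by 0.29, 0.73, 0.23 and 0.65. Of the Groucho corepressors that bind the end of Runx proteins, Tle3 was lower in CD4lo (-0.30 ± 0.09, adjusted p = 0.0260) and at -0.04 in CD4hi, 0.02 in DP and -0.23 in WT CD8, which did not pass. Tle1 was lower in CD4hi (-0.92, 0.0104) and DP (-0.66, 0.0411), and the histone deacetylase Hdac1 was lower in CD4hi (-0.37, 0.0156) and WT CD8 (-0.64, 0.000249).

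Of 16 CD8 lineage genes tied to Runx3, 14 were higher and 1 lower in CD4hi than in WT CD4, 15 and 1 in DP, 14 and 0 in CD4lo, and 14 and 1 in WT CD8. Over all tested genes, 10.4%, 11.1%, 8.82% and 11.1% were higher in these groups, and 6.43%, 8.06%, 7.02% and 10.6% lower. When 1 library was left out, the higher members numbered 12 to 13, 15, 14 to 15 and 13 to 14. The list medians were 2.29, 3.21, 2.86 and 3.03 on the log2 scale. The list holds Cd8a and Cd8b1, which the sort bears on. Cd8a was higher in DP (6.79) and WT CD8 (8.01) and not called in CD4hi (-0.82, adjusted p = 0.305) or CD4lo (0.26, 0.727). Cd8b1, the other chain of the coreceptor, was at 22.4, 278, 60.5, 520 and 11.0 CPM and was higher in all 4, by 1.03 in CD4hi, 4.67 in DP, 2.46 in CD4lo cells and 5.57 in WT CD8.

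Eomes, a T-box factor of cytotoxic and memory CD8 cells, was at 28.5, 35.6, 44.8, 46.4 and 4.99 CPM in CD4hi, DP, CD4lo, WT CD8 and WT CD4. Its relative Tbx21 (T-bet) was at 7.02, 12.2, 12.7, 12.1 and 1.58 CPM. Both were higher than in WT CD4 in all 4 groups, Eomes by 2.51 to 3.21 and Tbx21 by 2.16 or more. Itgae, the integrin chain CD103, was higher by 2.54 in CD4hi, 2.21 in DP, 1.27 in CD4lo cells and 1.94 in WT CD8. Prf1 (perforin) was higher by 0.81, 1.39, 1.39 and 1.32. Klrk1, the receptor NKG2D, had mean levels of 3.06, 8.24, 39.5, 20.7 and 0.564 CPM, and Gzmb (granzyme B) 7.39, 7.98, 6.20, 3.44 and 0.386 CPM. Klrk1 was highest in CD4lo. There, all 6 tested gamma delta markers and 5 of 6 tested NK and NKT markers were higher than in WT CD4. Of all tested genes, 8.82% were higher. The part of such cells in these levels was not tested. Fasl, a death ligand, was the member lower in CD4hi (-1.29, adjusted p = 0.0129), DP (-1.10, 0.0224) and WT CD8 (-0.99, 0.0342), and its value in CD4lo was 0.25 (0.595).

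Against WT CD8, the 16 split into 2 higher and 9 lower for CD4hi, where 6.22% and 3.69% of all tested genes were called, 3 and 5 for DP (4.57% and 2.28%), and 4 and 5 for CD4lo (3.41% and 2.08%). Leaving out 1 library at a time, the higher side held 1 gene for CD4hi, 0 to 1 for DP and 2 to 3 for CD4lo, while the lower side held 7 to 9, 5, and 4 to 5. In DP against CD4hi, 6 were higher and 0 lower (0.763% and 0.861% of all genes), with 5 to 6 higher when 1 library was left out. In CD4lo against CD4hi, 9 were higher and 1 lower (2.76% and 4.27%), with 5 to 8 higher when 1 library was left out. In CD4lo against DP, 4 were higher and 4 lower (2.55% and 3.64%).

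Of 10 CD4 helper genes tied to ThPOK, 2 were higher and 3 lower in CD4hi than in WT CD4, 1 and 7 in DP, 0 and 7 in CD4lo, and 0 and 8 in WT CD8, with medians of -0.21, -0.44, -0.53 and -0.92. Of all tested genes, 10.4%, 11.1%, 8.82% and 11.1% were higher in these groups, and 6.43%, 8.06%, 7.02% and 10.6% lower. Without 1 library, the lower ones numbered 1 to 3 in CD4hi, 5 to 7 in DP, 6 to 7 in CD4lo and 8 in WT CD8, and the higher ones 1 to 2 in CD4hi. Cd4, which the sort defined, was lower in all 4 groups, with log2 fold changes of -0.41 (CD4hi, adjusted p = 0.0215), -1.41 (DP), -4.24 (CD4lo) and -7.70 (WT CD8). Cd40lg, the CD40 ligand of helper cells, averaged 58.6, 43.1, 36.5, 8.52 and 121 CPM in CD4hi, DP, CD4lo, WT CD8 and WT CD4, and was lower in the first 4, with log2 fold changes of -1.04, -1.48, -1.73 and -3.79 against WT CD4. Icos, a costimulatory receptor, was higher in CD4hi (1.43) and DP (0.53) and lower in CD4lo (-0.38) and WT CD8 (-0.80). Against WT CD8, 6.22%, 4.57% and 3.41% of all tested genes were higher in CD4hi, DP and CD4lo, and 3.69%, 2.28% and 2.08% lower. Of this list, 8 members were higher in CD4hi with none lower. In DP, 8 were higher and 1 lower, and in CD4lo 7 and 1. With 1 library left out, the higher ones numbered 7 to 8 for CD4hi, 5 to 7 for DP and 3 to 4 for CD4lo.

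**Figure D4:**
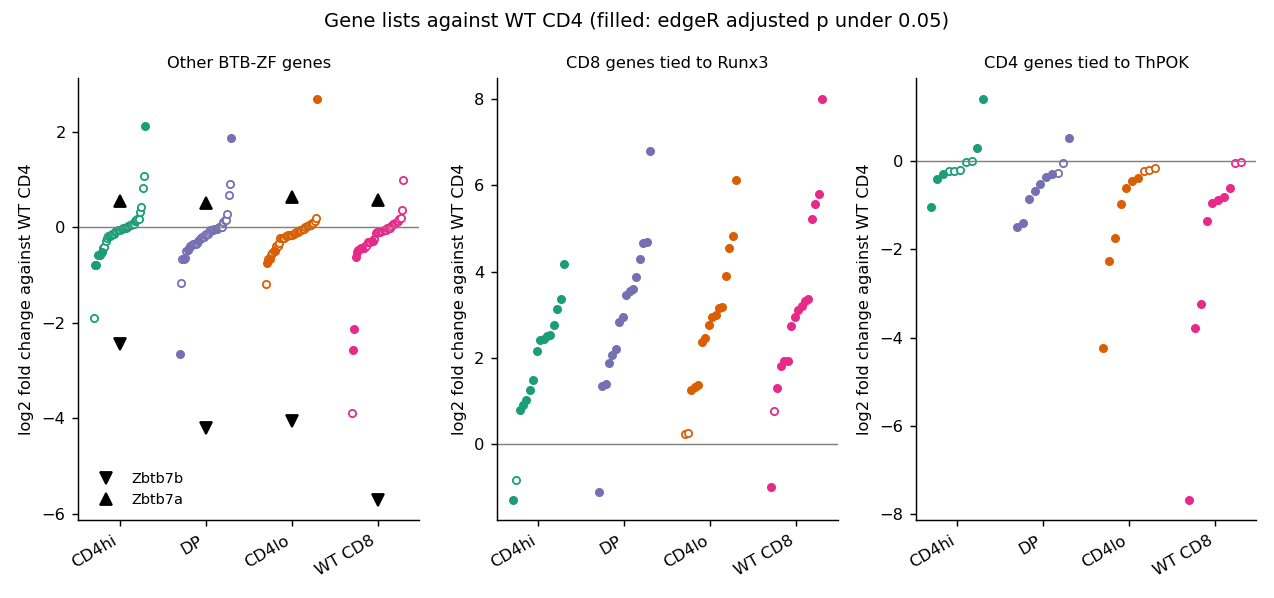
Log2 fold change against WT CD4 (vertical axes) of the listed genes in CD4hi, DP, CD4lo and WT CD8, with 1 panel for the other POK family genes, 1 for the CD8 genes and 1 for the CD4 genes, and 1 point per gene; black triangles are Zbtb7b and Zbtb7a and filled points passed an adjusted p of 0.05 in edgeR's quasi-likelihood test. Of the 16 CD8 lineage genes tied to Runx3, 14, 15, 14 and 14 were called higher in these groups, while the medians of the POK family lie between -0.16 and -0.05.

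The genes whose levels were most like each factor were found by Pearson's r of log2 CPM over the 10 libraries, among 7621 candidates. These were tested genes whose mean log2 CPM was 3 or more. Predicted gene models, clone names, mitochondrial genes and receptor or immunoglobulin segments had been left out and could not be named. The libraries share their groups, so r describes mainly the differences between group levels. It need not follow their order: the 5 genes named for Runx2 below had Spearman's rho of 0.612 to 0.733 with it. For Zbtb7b the 5 highest were Tbc1d30 (r = 0.991), Rab27a (0.984), Ptpn7 (0.974), Ski (0.968) and Kdm5b (0.966). Tbc1d30 averaged 12.7, 8.53, 7.38, 4.85 and 31.9 CPM in CD4hi, DP, CD4lo, WT CD8 and WT CD4, and Rab27a, a small GTPase of granule release, 66.3, 49.2, 54.1, 36.6 and 94.8 CPM. The lowest were Ttc7 (-0.984), Chst11 (-0.980), Rcn3 (-0.979), Nkg7 (-0.978) and Bend4 (-0.978). Nkg7, a granule protein of cytotoxic cells, averaged 15.6, 38.7, 43.3, 83.5 and 1.55 CPM.

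For Runx3 the highest were D4Wsu53e (0.984), Klrk1 (0.982), Plek (0.972), Dse (0.970) and Chsy1 (0.968), and the lowest Sc5d (-0.988), Fmnl3 (-0.979), Mapk11 (-0.972), Fam3c (-0.970) and St6gal1 (-0.966). Plek, the protein kinase C substrate pleckstrin, averaged 8.16, 17.9, 21.1, 20.1 and 1.49 CPM in CD4hi, DP, CD4lo, WT CD8 and WT CD4. St6gal1, a sialyltransferase, averaged 122, 115, 89.8, 93.7 and 157 CPM. Over the same libraries r was -0.927 between Zbtb7b and Runx3.

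For Runx1 the highest were Dst (0.973), Cyfip1 (0.972), Med13l (0.971), Tgfbr3 (0.967) and Itga6 (0.965), and r with Zbtb7b was 0.881. Itga6, the integrin chain alpha 6, averaged 155, 142, 144, 97.0 and 176 CPM in CD4hi, DP, CD4lo, WT CD8 and WT CD4. For Zbtb7a they were Lgals3bp (0.990), Glipr2 (0.989), Ppp1r15a (0.988), Dtx1 (0.986) and Slfn9 (0.985), and for Runx2 Ptp4a2 (0.971), Scpep1 (0.960), Glipr2 (0.959), Zbtb7a (0.953) and Racgap1 (0.952). Glipr2 thus stood in both lists, at 119, 102, 131, 126 and 36.7 CPM, and Zbtb7a was itself among those most like Runx2. The values of Cbfb were lower, with Ncstn (0.889), Dap (0.884), Pan3 (0.877), Snora21 (0.852) and Ypel5 (0.851). By Spearman's rho, the 5 highest genes shared 0 (Zbtb7b, Zbtb7a and Runx2), 2 (Runx1 and Cbfb) or 3 (Runx3) with those named. By r of the group means they shared 1 (Zbtb7b and Runx2), 2 (Zbtb7a and Runx1) or 0 (Runx3 and Cbfb). The exact names thus depend on the measure and on the spread within groups.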

How the data were processed

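Gene counts were deposited as whole numbers per gene symbol; per the submitters' processing notes, TopHat2, HTSeq and mm10 were used, without versions. Annotation and strand setting are not given in the sources used here. Per the labels' protocols, libraries were directional with ribosomal cDNA depleted. Groups came from the sample titles. With R 4.3.3 and edgeR 4.0.16, filterByExpr kept 12193 genes with 99.7% of counts. TMM-scaled counts of all 10 libraries entered 1 quasi-likelihood fit with 5 residual degrees of freedom. The spread within pairs was unequal. The mean chi-square per gene between paired libraries was 15.1 in WT CD4, 8.14 in CD4lo, 6.93 in CD4hi, 3.6 in WT CD8 and 3.48 in DP. The fit gives all groups a shared spread, so an SE against WT CD4 can be too small. All 10 pairs of groups were tested, two-sided, with Benjamini-Hochberg adjustment over all tested genes at 0.05. The script was checked on simulated data with the same spread in every group, which cannot test the effect of unequal spread. A count of genes has no molecular identifiers, so intervals cover counting error only. Levels per kilobase used the exon union of GENCODE M21. Sequences came from RefSeq. Alternatives used DESeq2 1.42.0 and limma 3.58.1, other scalings and filters, a replicate block and leaving out libraries. Genes outside the set were named as those most like each factor, as a short list given whatever it showed, and as the highest and lowest called of each list. The members and lists were chosen with earlier results of these data known.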

Additional observations from a re-analysis of the deposited data

How the results depend on the processing

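Under the alternatives run, the calls of Zbtb7b were kept in 108 of 108 cases over 9 comparisons, those of Zbtb7a and Runx2 in 48 of 48 each, those of Runx3 in 80 of 84 and those of Runx1 in 66 of 72; Cbfb became called in 0 of 120. The Runx1 call in CD4lo against WT CD4 was lost without a low-count filter (-0.3121, adjusted p = 0.0583) and in DESeq2 (-0.3667, 0.0644); the cause was not tested. With 1 library left out, the called folds that lost their call ranged from -0.4944 to -0.2709 (Runx1, DP against WT CD4), -0.4377 to -0.2727 (Runx1, CD4lo against WT CD4), 0.4105 to 0.6337 (Runx1, DP against WT CD8) and 0.2457 to 0.3609 (Runx3, CD4lo against DP). Uncalled folds near 0 changed sign in Cbfb (-0.02316 to 0.146 in DP against WT CD4, -0.01426 to 0.1261 in CD4lo against WT CD8, -0.1081 to 0.06094 in DP against CD4hi), Runx2 (-0.04567 to 0.1375 in CD4hi against WT CD8, -0.1135 to 0.3147 in CD4lo against WT CD8, -0.1641 to 0.2939 in CD4lo against CD4hi), Zbtb7a (-0.03793 to 0.01131 in DP against CD4hi), and in CD4lo against DP Zbtb7b (-0.008723 to 0.3759) and Runx1 (-0.07792 to 0.1454). The replicate block changed no call of the 6 genes. Over all tested genes, deviations of same-numbered libraries from their group means had r from -0.548 to 0.126. The value of -0.548 was for CD4hi with WT CD4, whose same-numbered libraries deviated in opposite directions. A block by replicate number does not remove such a deviation.

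Counts of all genes called moved by over 1.5 times in DESeq2 to 1275 (CD4hi against WT CD4), 1458 (DP), 1270 (CD4lo), 1758 (WT CD8), 506 (DP against WT CD8) and 128 (DP against CD4hi); with only the 4 libraries compared in the fit to 1202 (CD4hi against WT CD4) and 1351 (DP against WT CD8); with the strict filter to 430 (CD4lo against WT CD8) and with no filter to 345 (DP against CD4hi). Against WT CD4, they were 2048, 2332, 1931 and 2651 in CD4hi, DP, CD4lo and WT CD8, and with 1 library left out 1193 to 1852, 1254 to 2002, 1239 to 1813 and 1411 to 2317. The lowest came without the second library of CD4hi, DP, CD4lo and WT CD8. Against WT CD8 these ranges were 600 to 863 of 1209 (CD4hi), 312 to 399 of 835 (DP) and 353 to 447 of 670 (CD4lo). Among OB11/OB11 groups they were 69 to 122 of 198 (DP against CD4hi), 507 to 573 of 857 (CD4lo against CD4hi) and 371 to 476 of 755 (CD4lo against DP).

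With the longest transcript as length, the Runx1 share was 21.37%, 17.29%, 14.69%, 11.13% and 31.71% and the Runx3 share 74.63%, 79.81%, 82.12%, 85.56% and 66.59% in CD4hi, DP, CD4lo, WT CD8 and WT CD4; Zbtb7b was 20.64% of the Zbtb7 pair in CD4hi, 7.371% in CD4lo, 2.527% in WT CD8 and 67.33% in WT CD4. Depth limits Zbtb7b in WT CD8 and Runx2 in WT CD4, each under 40 counts a library.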
